A study of Mus musculus with 79 samples.

Results

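Pyramidal neurons, the excitatory projection cells of the cortex, were set against parvalbumin neurons, its fast-spiking inhibitory cells, within the same unstressed mice. The comparison used 20 of the 79 libraries of the series, 10 pyramidal (PYR) and 10 parvalbumin (PV), and ran across all genes. Each type had 1 library for every control number from 1 to 10. Equal numbers were read as the same mouse, which the labels do not state outright. Each library held 130 cells cut by laser from coronal sections of the medial prefrontal cortex, after the cells had been found with RNAscope probes, Slc17a7 for PYR and Pvalb for PV. The probes therefore set the levels of these 2 genes, which are no finding. The controls were male C57Bl/6J mice (strain given as C57Bl/6) housed in groups with littermates, the labels name no transgene, and the mice went through the same behavioural tests as the stressed animals. The second group used here, 9 of the 10 stressed mice (UCMS, single-housed, with daily mild stressors for 5 weeks), was the same strain and sex and had both libraries. The labels give no age. A library thus stands for probe-positive cells of 1 region in a male mouse, and the labels do not give the cortical layer of the cells cut. The series asked how chronic stress changed 4 neuron types; the comparison here asks how 2 of those types differed without stress.

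Pyramidal neurons release glutamate onto other neurons through long axons and receive excitation on dendritic spines, where calcium entry through NMDA receptors acts on kinases and small GTPases. Parvalbumin basket and chandelier cells, which release GABA around the soma and axon initial segment of pyramidal cells, fire brief spikes at high rates. They are known for Kv3 potassium channels, fast vesicle fusion machinery, many mitochondria and a coat of extracellular matrix called the perineuronal net.

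The values are read counts that the authors scaled by a size factor for each library, called normalized counts below. PYR libraries held 11364260 ± 701261 reads (mean ± SD, n = 10) and PV libraries 9048261 ± 2139042. Protein-coding genes took 58.7 ± 3.90% of the signal in PYR and 61.2 ± 2.93% in PV libraries, and miRNA models 29.0 ± 4.33% and 25.1 ± 3.45%. Neither share passed an exact sign-flip permutation test over mice (adjusted p 0.169 and 0.118). Scaled to protein-coding reads, 818 genes were called higher in PYR and 567 in PV. The PV library of mouse 3 was the shallowest, with 5241174 reads and 9033 genes detected. It also stood apart over the whole profile: in a principal component analysis of the tested genes it lay at −243 and −190 on the first and the second component (score units), where the other 9 PV libraries lay between −99.3 and −5.17 and between 50.6 and 80.3. Without mouse 3, 698 genes were called higher in PYR and 653 in PV, of which 618 and 543 were also called with all mice, and the median log2 difference of all tested genes was 0.0061 in place of 0.08. Of the probed genes, Slc17a7 was at 14218 ± 2014 normalized counts in PYR and 2819 ± 743 in PV libraries, above 0 in all 20, and Pvalb was at 7.09 ± 10.2 in PYR and 816 ± 422 in PV libraries. The summed level of 12 pyramidal markers, the probed Slc17a7 among them, was 33029 ± 2654 in PYR and 11598 ± 1925 in PV libraries. The PV sum is 35.1% of the PYR level, and every PV library held reads of these markers. Within it Camk2a had a mean of 5768 and Cux2 of 1052, against 10372 and 786 in PYR libraries. The sum of 12 parvalbumin markers, the probed Pvalb among them, was 3326 ± 723 in PYR and 49654 ± 7125 in PV libraries. Mean sums of somatostatin, VIP, astrocyte, oligodendrocyte, precursor, microglial and endothelial markers lay between 176 and 2036 in PYR and between 185 and 1867 in PV libraries. Single libraries spread wider. The oligodendrocyte sum ran from 837 to 4165 in PYR and the somatostatin sum from 1115 to 3308 in PV libraries, and the lowest endothelial sum was 0 in both types. None of these 7 sums passed an exact sign-flip permutation test over mice (two-sided; lowest adjusted p 0.169 over 14 library measures, for the VIP list). The part that carried-over RNA had in any difference below was not tested. Because each value is a total for the 130 cells cut, fewer cells with a transcript and less of it per cell cannot be told apart.

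The types differed in 1370 genes at least 2-fold and past an adjusted p of 0.05, among 16564 tested (limma with the mouse as a block, Benjamini-Hochberg adjusted). Of these, 765 were higher in PYR (4.62% of the tested genes) and the rest higher in PV (3.65%), the probed Slc17a7 and Pvalb included. The called genes included spine and calcium signalling genes on the PYR side, and GABA synthesis and fast-spiking ion channels on the PV side. A further 230 genes passed higher in PYR and 216 higher in PV at less than 2-fold. For 335 genes (2.02%) the 10 PYR and 10 PV values did not overlap. Differences below are means of log2(normalized count + 4) over mice, which understates the change of low genes.

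With the probed Slc17a7 left out, the PYR gene with the largest statistic was Nptxr, the neuronal pentraxin receptor. It lies on chr15:79786351-79804766, minus strand (GRCm38, ENSMUSG00000022421). Its normalized counts ran from 6821 to 10956 (median 8668) in PYR and from 1087 to 2610.2 (median 1959.8) in PV libraries, a log2 difference of 2.26 ± 0.12 (SE; adjusted p = 5.32e-56, limma). Every PYR library lay above every PV library. Enc1, an actin-associated kelch protein, was next, at 4278 to 7789 (median 5360.2) in PYR against 400.1 to 1878 (median 1257) in PV libraries, with no overlap. Kalrn, a guanine nucleotide exchange factor of spines, gave a smaller but equally separated difference of 1.35 ± 0.10 on the log2 scale, from 7854 to 12397 (median 9398) in PYR and 2666 to 5739 (median 3801) in PV libraries. Among the next genes by statistic on the PYR side, 8 more did not overlap: the secreted glycoprotein Nell2, the Nogo receptor partner Lingo1, the Ras activator Rasgrp1, the actin nucleator Cobl, the calcium-activated kinase Ptk2b, the calcium pump Atp2b4, the sodium channel Scn2a and the RNA-binding Arpp21. Their log2 differences ran from 1.52 (Scn2a) to 2.90 (Cobl).

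The largest PYR-side differences among genes detected in all 10 PYR libraries were in less abundant genes. C1ql3, which encodes a secreted C1q-like protein of synapses, was at 139 to 894 (median 579) normalized counts in PYR and 0 to 93.5 (median 0.564) in PV libraries, higher in PYR by 5.44 ± 0.81 on the log2 scale (adjusted p = 4.54e-09, limma). Nov, which encodes the matricellular protein CCN3, differed by 4.79 and Slc24a4, a potassium-dependent sodium-calcium exchanger, by 4.60. The other 5 were Pter, Fxyd6, Cpne7, Exph5 and Tpd52l1, at log2 differences of 4.34 to 4.67. Fxyd6 and Cpne7 were not highest in PYR among the neuron types of the control mice. Fxyd6 had means of 744 in PYR, 69.5 in PV, 882 in somatostatin and 1415 in VIP libraries. Those of Cpne7 were 514, 47.1, 418 and 1491. Values overlapped between the types for Pter, Cpne7, Exph5 and Tpd52l1. With edgeR on recovered reads, Slc24a4 (adjusted p = 0.0725) and Exph5 (0.0548) were no longer called.

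On the PV side Gad1 had the largest statistic of all genes. It encodes the GABA-synthesising enzyme GAD67 and lies on chr2:70553072-70602014, plus strand. Gad1 ran from 72.9 to 480.3 (median 163) normalized counts in PYR and from 7683 to 13854 (median 9827) in PV libraries, higher in PV by 5.86 ± 0.21 on the log2 scale (adjusted p = 1.51e-87, limma). The lowest PV library was far above the highest PYR library. Among those that followed were the complexin Cplx1, the Kv3 channel Kcnc1, the sodium channel Scn1a, the sodium pump beta subunit Atp1b1, the erythrocyte-type ankyrin Ank1, the neuregulin receptor Erbb4, the exchanger Slc24a2, the ankyrin and BTB protein Btbd11, and Gad2, and none of them overlapped between types. Their differences spanned a wide range, from 1.44 for Atp1b1, abundant in both types, to 6.54 for Btbd11, which was at 0 to 159.7 (median 25.0) in PYR and 2304 to 4204 (median 2919.6) in PV libraries.

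Genes near 0 in most PYR libraries formed the upper end of the PV side. Nxph1, a secreted ligand of alpha-neurexins, ran from 0 to 136 (median 19.1) in PYR and 782 to 3683 (median 1750.1) in PV libraries, a log2 difference of 6.54 ± 0.60 toward PV (adjusted p = 2.16e-22, limma). Mybpc1, a slow-type myosin binding protein, was at 0 to 40.1 (median 0) in PYR and 100.3 to 1009 (median 453) in PV libraries. Arhgef6, an exchange factor for Rac and Cdc42, had a similar pattern, at 0 to 154 (median 0) and 171 to 1249 (median 488). No value of Nxph1, Mybpc1 or Arhgef6 overlapped between the types, nor did any of Pcp4l1, Syt2, Lhx6 or Slc32a1, whose log2 differences ran from 6.02 to 6.29 toward PV. Not all of them were particular to PV. In somatostatin libraries of the control mice Lhx6 had a mean of 1166 (974 in PV), Nxph1 of 1696 (1869) and Slc32a1 of 1113 (1310). The others were lower there, Syt2 at 11.7 (3131 in PV). In VIP libraries the means of all these genes were below those in PV.

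**Figure D1:**
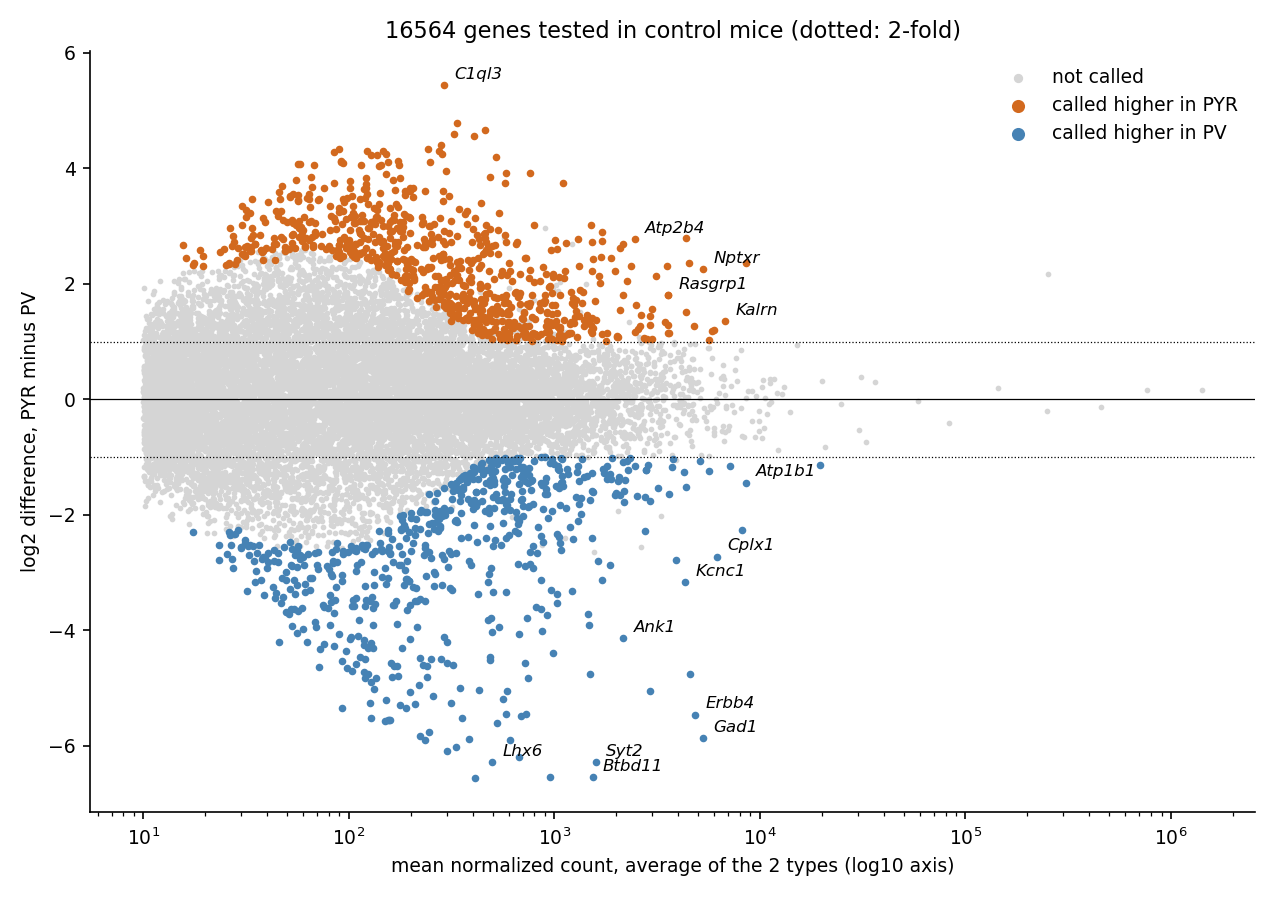
Each point is 1 of the 16564 tested genes, with its mean normalized count over the 20 libraries (log10 axis) against its log2 difference, PYR minus PV; coloured points are the 1370 called genes, the probed Slc17a7 and Pvalb included, and dotted lines mark 2-fold. The largest labelled differences are those of Btbd11, Syt2 and Lhx6, at more than 6 log2 units toward PV. The largest labelled on the PYR side is smaller, C1ql3 at 5.44.

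**Figure D2:**
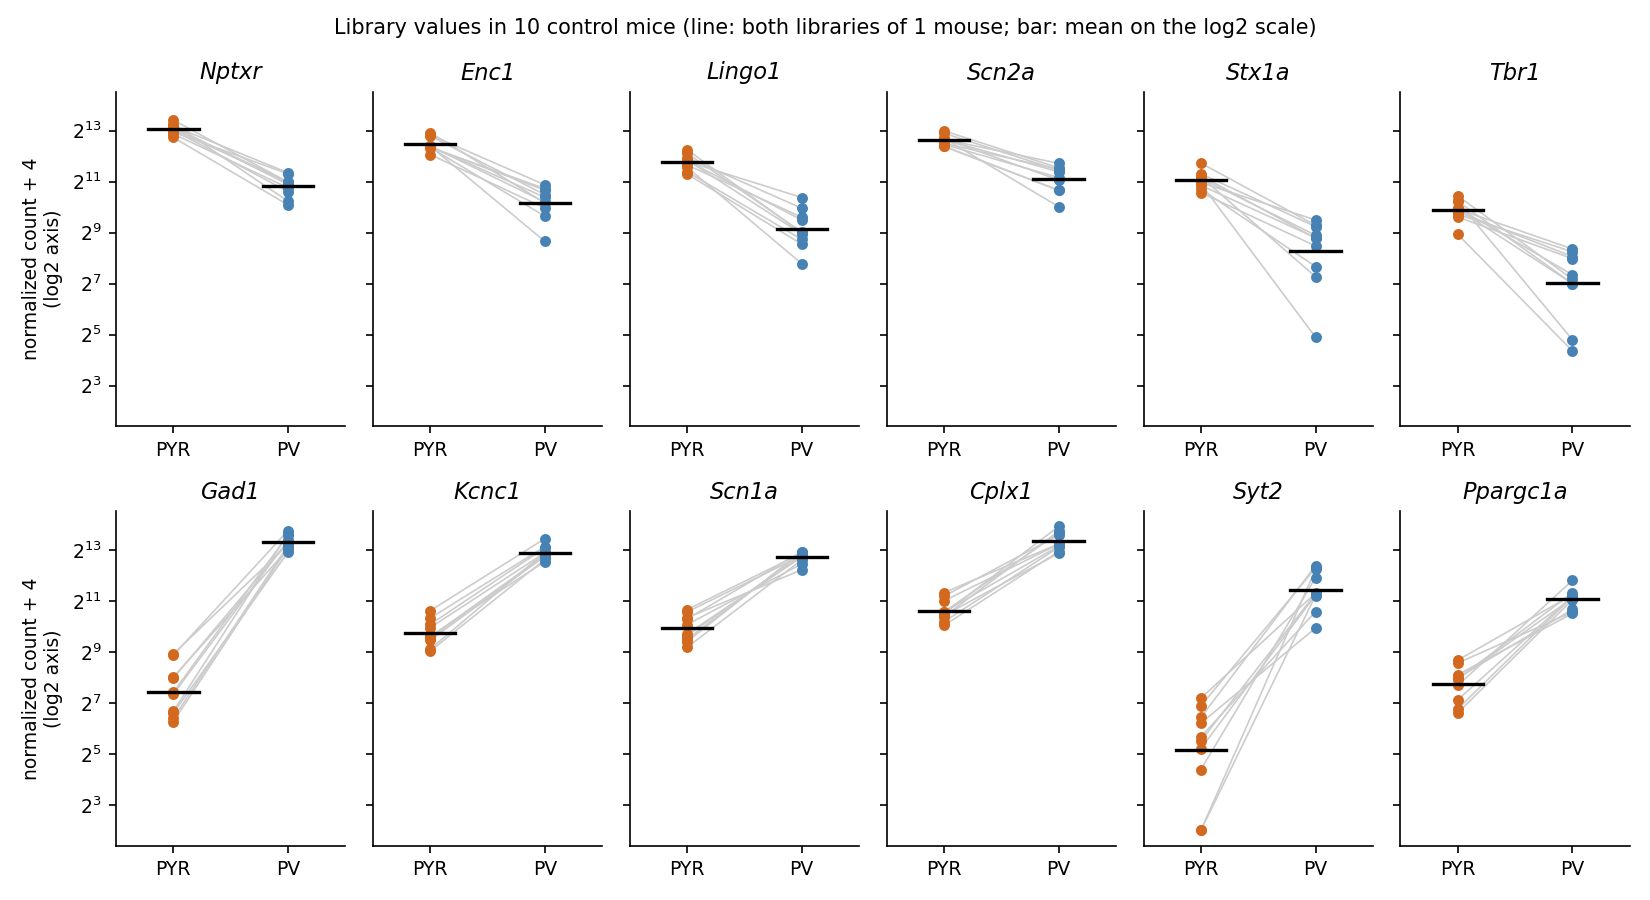
Normalized counts plus 4 (log2 axis) of 12 genes in the 2 libraries of each control mouse, joined by a line, with PYR at the left and PV at the right of each panel and the mean on the log2 scale as a bar. In each panel all 10 lines run the same way.

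Across the 32 lists of functionally related genes, the share of members called was mostly above that of all tested genes, and the direction differed by list. The highest shares toward PV were in the GABA neuron transcription factors (11 of 13), GABA synthesis and transport (6 of 8) and Kv1 and Kv3 channels (8 of 14). Toward PYR they were in projection neuron factors (9 of 20), kainate and metabotropic glutamate receptors (6 of 14), activity-induced genes (7 of 17), calcium channels (6 of 15) and Ras and Rap signalling (7 of 18). The lists were written with earlier results of these data known, so their counts describe the libraries and test nothing beyond the single genes. For reference, 4.62% of all 16564 tested genes were called higher in PYR and 3.65% in PV. The sign was toward PYR for 8842 of these genes and toward PV for 7722, with a median log2 difference of 0.08 toward PYR.

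**Figure D3:**
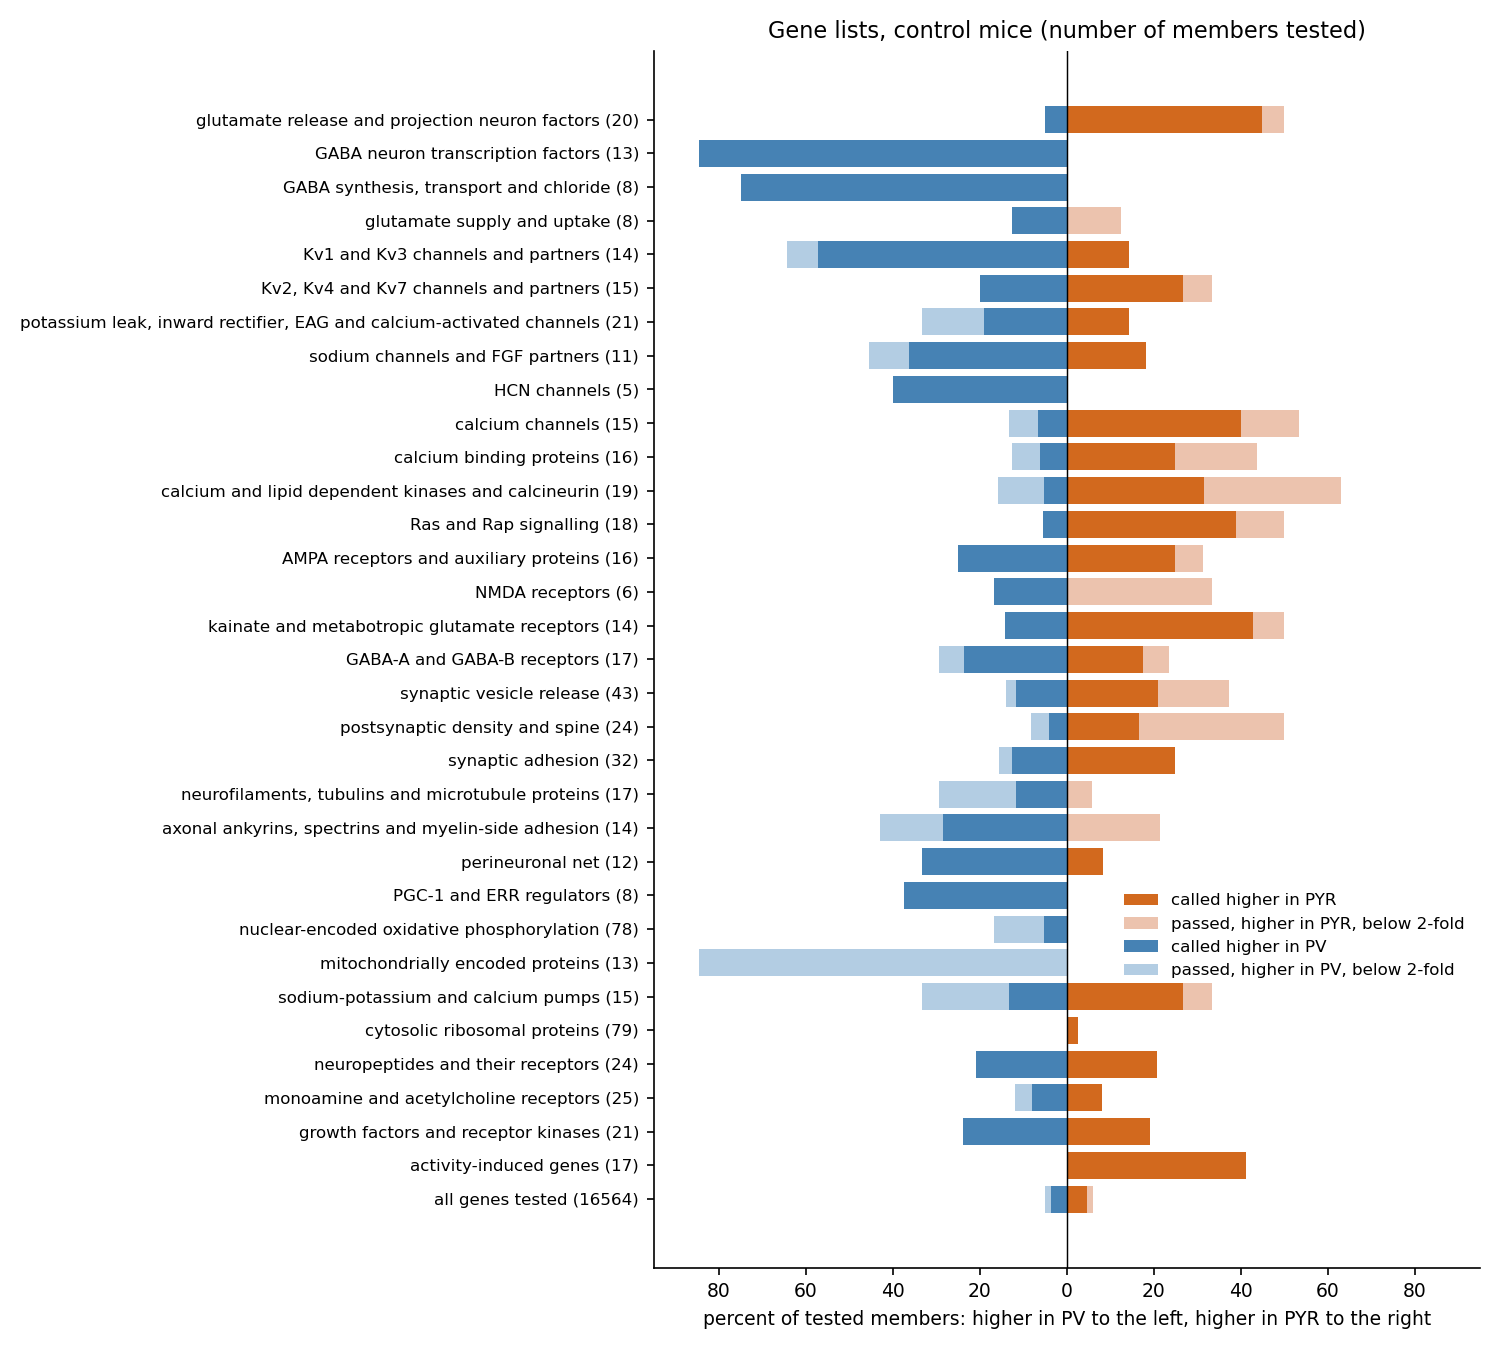
For each gene list, the percent of its tested members called higher in PYR and in PV, in dark colour, and of those that passed below 2-fold in pale colour; the lowest bar is all tested genes (4.62% and 3.65% called). The dark bar of the GABA neuron transcription factors reaches farthest toward PV and that of the projection neuron factors farthest toward PYR.

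Genes of transmitter identity lay far apart between the types. Of 8 genes of GABA synthesis, transport and chloride handling, 6 were called higher in PV and none in PYR (median log2 difference 3.77 toward PV). Among them, Gad1 and Gad2 make GABA, Slc32a1 loads it into vesicles, and Abat and Aldh5a1 degrade it. Slc32a1 ran from 0 to 157 (median 12.2) normalized counts in PYR and 876 to 1835 (median 1303) in PV libraries. Abat, the GABA transaminase, ran from 119.8 to 624 (median 465) in PYR and 1845 to 3737 (median 2899.6) in PV libraries, and the values of all 6 genes were separate between the types. All 6 calls held in edgeR and with any 1 mouse left out. In the control mice Gad2 had means of 2830 in PV, 4409 in somatostatin and 2319 in VIP libraries. Those of Gad1 were 10316, 4139 and 4245. The supply of glutamate was less divided: of 8 genes for glutamate supply and uptake, 1 was called, the glutamine transporter Slc38a1, higher in PV by 1.67 ± 0.16 on the log2 scale (adjusted p = 1.9e-20, limma). The second vesicular glutamate transporter, Slc17a6, was low in both types, at 0 to 188 (median 52.4) in PYR and 0 to 144 (median 35.2) in PV libraries, and did not pass.

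Transcription factors of the medial ganglionic eminence, the embryonic source of parvalbumin cells, were kept apart in the same way. Of 13 tested GABA neuron factors, 11 were called higher in PV, none in PYR, and all 13 had the sign toward PV (median 3.54). Lhx6, the LIM homeodomain factor of this lineage, was at 0 to 107 (median 1.96) normalized counts in PYR and 582 to 1349 (median 1025) in PV libraries. Satb1, a chromatin organiser that acts after Lhx6, was much less restricted, at 641 to 1477 (median 930.0) in PYR and 1755 to 4209.7 (median 2894) in PV libraries, a log2 difference of 1.65 ± 0.18 toward PV (adjusted p = 9.48e-16, limma). Both genes gave separate ranges, as did Dlx1, Sox6 and Maf, with log2 differences of 4.07 (Sox6) to 5.01 (Dlx1). Dlx2, Dlx5, Npas3 and Sp9 were called with overlapping values, and the call of Sp9 was lost without mouse 4 (adjusted p = 0.0516) and in edgeR.

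Factors of projection neurons were the counterpart on the PYR side: 9 of 20 were called higher in PYR and 1 in PV (median 1.52 toward PYR). Tbr1, a factor of deep-layer corticothalamic cells, ran from 486 to 1390.4 (median 968) normalized counts in PYR and 16.6 to 325 (median 150.2) in PV libraries. Values of Tbr1 and the bHLH factor Neurod2 did not overlap between types. Bhlhe22 had the largest difference of the list, 4.06 ± 0.84 on the log2 scale (adjusted p = 6e-05, limma). Fezf2, which specifies subcerebral projection neurons, differed by 2.87 and Neurod6 by 2.73, both with overlap. Neurod1, Foxp2 and Pou3f2 were each called only in part of the leave-out fits, and edgeR called 5 of the 9, without these 3 and Neurod2. The exception was Cux1, known as an upper-layer marker, which was higher in PV by 1.31 ± 0.33 on the log2 scale, at 120.5 to 840.1 (median 332) in PYR and 479 to 1653 (median 759.7) in PV libraries.

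Kv1 and Kv3 potassium channels and their partners were largely a PV set, with 8 of 14 called higher in PV and 2 in PYR (median 1.77 toward PV). Kv3 channels repolarise spikes quickly and allow high firing rates. Kcnc1 (Kv3.1) was at 519.6 to 1567 (median 770.1) normalized counts in PYR and 5965 to 11148 (median 7351) in PV libraries, and Kcnc2 (Kv3.2) at 16.3 to 432 (median 218) and 3708 to 7248 (median 6060.1). Both were separate between types. Kcnc4 (Kv3.4) went the other way, from 229 to 865 (median 487) in PYR and 0 to 452 (median 143) in PV libraries, higher in PYR by 2.22 ± 0.54 (adjusted p = 0.00115, limma). Among Kv1 channels of axons, Kcna1 and Kcna2 were each higher in PV by 1.51 on the log2 scale, whereas Kcna4 was higher in PYR by 2.64 ± 0.72, a call that edgeR did not make. The beta subunit Kcnab3 and the silent subunits Kcns3 and Kcng4, which form channels only with other subunits, were higher in PV by 5.05, 4.49 and 5.21.

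Other potassium channels were split between the types. In the Kv2, Kv4 and Kv7 list 4 of 15 were called higher in PYR and 3 in PV, and the split ran through the partners of Kv4, the channels of the A-type current. The interacting proteins Kcnip1 and Kcnip2 were higher in PV by 4.48 ± 0.81 and 2.49 ± 0.29 on the log2 scale, while Kcnip3 was higher in PYR by 3.27 ± 0.60. Likewise the auxiliary subunit Dpp10 was higher in PYR by 1.33 and its relative Dpp6 in PV by 1.01. The Kv4.3 subunit Kcnd3 and the silent subunit Kcnv1 were called higher in PYR. Of 21 leak, inward rectifier, EAG and calcium-activated channels, 3 were called higher in PYR and 4 in PV. Kcnn3 (SK3), a calcium-activated channel, was higher in PYR by 4.30 ± 0.87, and Kcnh3 by 1.79, whereas its relative Kcnh2 (ERG1) was higher in PV by 2.84 ± 0.38. Kcnh2 ran from 41.8 to 496 (median 154) normalized counts in PYR and 768 to 2144 (median 1064) in PV libraries, and the leak channel Kcnk3 (TASK-1) from 8.36 to 266 (median 48.2) and 376 to 1545 (median 643), both without overlap. The calls of Kcnip3 and Kcnt2 (PYR) and of Kcnk2 and Dpp6 (PV) were lost in edgeR, that of Dpp6 also in DESeq2 and without mouse 3, 7 or 9, and that of Kcnk1 (PV) without mouse 2 or 6.

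Sodium channels of the axon exchanged places between the types. Scn1a (Nav1.1), on chr2:66270778-66440840, minus strand, and Scn2a (Nav1.2), on chr2:65620771-65767447, plus strand, lie in the same chromosome 2 cluster of sodium channel genes. Scn1a ran from 577 to 1618 (median 952) normalized counts in PYR and 4781 to 7834 (median 7032) in PV libraries, and Scn2a from 5335 to 8181 (median 6448) and 1035 to 3372 (median 2484), with no overlap for either gene. Per kilobase of exon, the level of Scn2a was 504 and that of Scn1a 92.8 in PYR libraries, while in PV libraries they stood at 184 and 612. Of the beta subunits, Scn4b was higher in PV by 1.94 and Scn3b higher in PYR by 1.73 on the log2 scale. Fgf12, an intracellular partner that shapes inactivation, was higher in PV by 1.64 ± 0.27. In all, 2 of 11 members were called higher in PYR and 4 in PV; Scn4b depended on mice 2, 9 and 10 and, like Scn3b, was not called by edgeR. Of 5 genes of HCN channels, the carriers of the hyperpolarisation-activated current, and their auxiliary subunit, 2 were called, both higher in PV. Hcn2, at 1.03 ± 0.21, was close to the 2-fold limit, and its call was lost in edgeR and without mouse 2, 3, 8 or 9.

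Calcium channel genes were called more often in PYR, 6 of 15 against 1 in PV, with a median of 1.12 toward PYR. Cacna1e (R-type Cav2.3) ran from 5888 to 11009.6 (median 6716) normalized counts in PYR and 164 to 2435 (median 1738) in PV libraries. The alpha2delta subunits, which bring channels to the membrane, were divided: Cacna2d1 was at 1521 to 2527 (median 1818) in PYR and 22.5 to 863 (median 344) in PV libraries, and Cacna2d2 at 9.50 to 302 (median 105) and 1495 to 2746 (median 1657), in opposite directions and both without overlap. Cacna2d3 was higher in PYR by 1.94 ± 0.43 (adjusted p = 0.000223, limma). The channels that trigger transmitter release passed below 2-fold, P/Q-type Cacna1a toward PV by 0.67 ± 0.14 and N-type Cacna1b toward PYR by 0.85 ± 0.17. The 7 calls held in edgeR.

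Genes of vesicle release differed by paralogue, and more of them lay toward PYR than toward PV. Of 43 tested, 9 were called higher in PYR and 5 in PV. Below 2-fold, 7 more passed toward PYR and 1 toward PV. The sign was toward PYR for 30 of the 43 (median 0.40 toward PYR). Syt2, a fast calcium sensor of release, was at 0 to 142 (median 44.3) normalized counts in PYR and 978 to 5348 (median 2509.8) in PV libraries, a log2 difference of 6.29 ± 0.45 (adjusted p = 3.96e-30, limma). Its relative Syt1 did not pass (log2 difference 0.06 ± 0.08 toward PYR). Per kilobase of exon, Syt1 stood at 1173 in PYR and 1126 in PV libraries, and Syt2 at 7.16 and 409.9. The vesicle fusion proteins repeated this: Vamp2, at 1129 per kilobase in PYR and 1216 in PV, did not pass, while Vamp1 was at 13.7 and 146. Vamp1 ran from 24.6 to 477 (median 109) in PYR and 545 to 2398 (median 1412) in PV libraries and did not overlap.

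Complexins, which clamp and then promote fusion, differed in opposite directions. Cplx1 ran from 1049 to 2560.4 (median 1483) normalized counts in PYR and 7469 to 15524 (median 9607) in PV libraries, while Cplx2 passed toward PYR below 2-fold, by 0.73 ± 0.19 on the log2 scale. Per kilobase Cplx1 was above Cplx2 in both types, at 746 and 449 in PYR and at 4879.6 and 276 in PV libraries. The vesicle glycoproteins changed rank: Sv2b was at 882 and Sv2a at 544 per kilobase in PYR libraries, against 157 and 1305 in PV libraries. Sv2b was higher in PYR by 2.79 ± 0.47 and Sv2a in PV by 1.26 ± 0.12 on the log2 scale, neither with overlap. Stx1a, the syntaxin of the release machinery, was higher in PYR by 2.78 ± 0.27, and the calcium sensor Doc2a by 3.46 ± 0.90. Syt5, Syt9, Syt10 and Syt16 were also called higher in PYR and Syt3 higher in PV. Of these, Syt3, Syt5 and Syt9 were not called by edgeR, and the calls of Syt10 (mouse 3, 5 or 6) and Syt3 (mouse 2, 6, 9 or 10) were lost when 1 of these mice was left out. The priming factor Unc13b (without mouse 3) and the active-zone protein Rimbp2 (without mouse 2) also fell short, at PYR-side differences of 1.15 and 1.08.

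**Figure D4:**
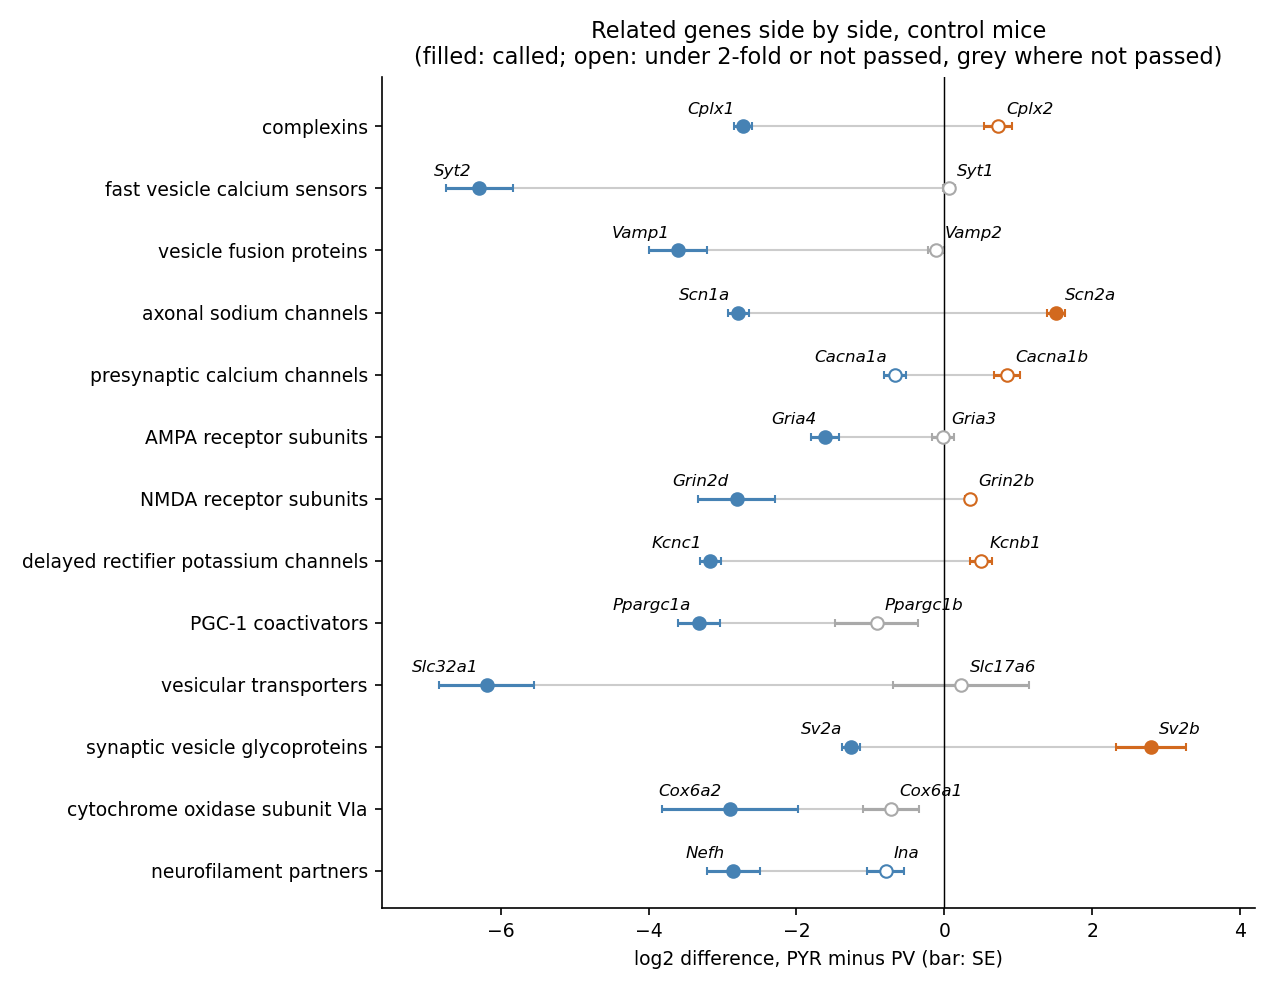
Mean log2 differences (PYR minus PV, bars 1 SE) of both genes of 13 related pairs in the 10 control mice. In several pairs the members lie on opposite sides of 0, among them Scn2a and Scn1a, and Sv2b and Sv2a; Syt1 and Vamp2 lie near 0 with Syt2 and Vamp1 far to the PV side.

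Of 8 tested regulators of mitochondrial genes, 3 were called higher in PV, 2 of them also in edgeR, and 5 did not pass (median 1.41 toward PV). PGC-1alpha, the coactivator encoded by Ppargc1a, works with estrogen-related receptors (ERR), and Syt2, Cplx1, Nefh and Pvalb are known to depend on it in parvalbumin cells. Ppargc1a, on chr5:51454250-51567726, minus strand, ran from 93.8 to 406 (median 242) normalized counts in PYR and 1455 to 3574 (median 2249) in PV libraries, higher in PV by 3.32 ± 0.29 on the log2 scale (adjusted p = 1.37e-24, limma). Esrrg (ERR gamma) ran from 26.0 to 225 (median 98.8) in PYR and 663 to 1069 (median 923) in PV libraries, and both genes gave separate ranges. Esrrb (ERR beta) was called too, at 2.99 ± 0.92, but not in edgeR nor without mouse 2 or 5. The related coactivator Ppargc1b did not pass (0.92 ± 0.56 toward PV).

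The ERR element was looked for in the promoters of the tested genes. Of the PV-called genes that hold it, Syt2 and Hcn2 are shown because they belong to the release and channel lists above. They, and Acsl6, Fam131c and Sgk1 named after them, were chosen after their values were seen. The windows are those of RefSeq on GRCm38.p6, 250 bases before to 50 after a gene's start, 300 bases each, printed 5′ to 3′ on the gene's strand. The capitals mark TCAAGGTCA read on the opposite strand, which here is TGACCTTGA. The Syt2 window is chr1:134646362-134646661 (plus strand) and the Hcn2 window chr10:79716384-79716683 (plus strand).
Syt2: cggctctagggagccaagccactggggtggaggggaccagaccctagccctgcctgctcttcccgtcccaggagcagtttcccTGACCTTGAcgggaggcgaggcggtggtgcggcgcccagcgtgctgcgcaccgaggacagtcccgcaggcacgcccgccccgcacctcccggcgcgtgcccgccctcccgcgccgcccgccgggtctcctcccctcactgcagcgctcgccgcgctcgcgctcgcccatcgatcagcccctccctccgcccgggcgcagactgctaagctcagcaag
Hcn2: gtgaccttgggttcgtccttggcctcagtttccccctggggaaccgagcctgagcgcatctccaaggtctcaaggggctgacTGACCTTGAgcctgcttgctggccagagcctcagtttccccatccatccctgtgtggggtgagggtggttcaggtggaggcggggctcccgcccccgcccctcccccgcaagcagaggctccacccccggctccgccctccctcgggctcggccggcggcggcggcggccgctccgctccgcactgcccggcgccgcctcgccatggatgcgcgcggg
The element begins 167 bases before the start in Syt2 and 168 bases before it in Hcn2. Searched on both strands as TCAAGGTCA, it was in windows of 5 of the 444 PV-called genes with a window (1.13%; Acsl6, Fam131c, Hcn2, Sgk1 and Syt2) and of 3 of 538 PYR-called genes (0.558%). It was in windows of 43 of 10876 tested genes (0.395%) and of 126 of all 27025 genes (0.47%). A match describes letters in this window and does not show binding.

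Genes of oxidative phosphorylation were shifted toward PV by small amounts. Of all 16564 tested genes, 7722 had the sign toward PV, 3.65% were called higher in PV and 216 passed toward PV below 2-fold. Of 78 nuclear-encoded genes, 63 had the sign toward PV (median 0.59), 4 were called higher in PV, 9 more passed below 2-fold, and none passed toward PYR. The ATP synthase beta subunit Atp5b, among these 9, ran from 2158 to 2847 (median 2306) normalized counts in PYR and 3044 to 5074 (median 3950.0) in PV libraries, higher in PV by 0.76 ± 0.13 with separate ranges (adjusted p = 8.98e-07, limma). Cox6a2, a cytochrome oxidase subunit typical of muscle, was above 0 in 3 of 10 PYR libraries (highest 49.9) and ran from 0 to 359 (median 74.3) in PV libraries. The calls of Cox6a2, Atp5g1, Ndufa6 and Uqcrc2 were each lost without some mice, and edgeR called none of the 78. For the 13 proteins encoded in mitochondrial DNA, all had the sign toward PV, 11 passed and none reached 2-fold (median 0.55 toward PV). Cytochrome oxidase 1, mt-Co1, ran from 18127 to 30836 (median 24272) in PYR and 32020.5 to 44881 (median 34542) in PV libraries. Together these 13 took 0.825 ± 0.107% of the reads in PYR and 1.22 ± 0.179% in PV libraries (SD, n = 10), higher in PV in all 10 mice (exact sign-flip p = 0.00195, the smallest that 10 pairs allow; adjusted p = 0.0273 over 14 measures).

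Sodium-potassium pumps, which restore the gradients that spikes use up, were listed with calcium pumps, and 4 of these 15 genes were called higher in PYR and 2 in PV. The beta subunit Atp1b1 ran from 3493 to 5366 (median 4613) normalized counts in PYR and 10609.8 to 16121 (median 11884) in PV libraries, without overlap, and was higher in PV by 1.44 ± 0.09 on the log2 scale, whereas the small regulators Fxyd6 and Fxyd7 were higher in PYR by 4.56 and 2.91. Among plasma membrane calcium pumps, Atp2b4 was higher in PYR by 2.78 ± 0.22 (adjusted p = 3.68e-14, limma), while Atp2b2 and Atp2b3 passed toward PV below 2-fold.

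Glutamate receptors were present in both types with different subunits. Gria4, an AMPA subunit with fast kinetics, ran from 526 to 1686 (median 1026) normalized counts in PYR and 2176 to 5392 (median 2837) in PV libraries, higher in PV by 1.61 ± 0.18 on the log2 scale (adjusted p = 7.34e-15, limma). Gria1 was higher in PV by 1.16 ± 0.09, and Gria2, the subunit that makes AMPA receptors impermeable to calcium, was higher in PYR by 0.69 ± 0.11, below 2-fold. None of these 3 subunits overlapped between types. The auxiliary subunits split too, with stargazin Cacng2 and its relative Cacng7 higher in PV by 1.81 and 1.41 and Cnih2, Cnih3, Cacng3 and Shisa7 higher in PYR by 1.10 to 2.23. Of 16 AMPA receptor genes 4 were called in each direction, but edgeR called 1 of the 4 PYR genes, Cacng3, and Cnih2 and Shisa7 lost their calls without mouse 3, Shisa7 also in DESeq2. Among NMDA receptors 1 of 6 was called: Grin2d ran from 0 to 272 (median 95.2) in PYR and 344 to 1071 (median 659.6) in PV libraries, higher in PV by 2.81 ± 0.52. Its means were alike in the 3 interneuron types of the control mice, at 640 in PV, 636 in somatostatin and 624 in VIP libraries. The subunits Grin2a and Grin2b passed toward PYR below 2-fold, at 0.83 and 0.35.

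Kainate and metabotropic receptors were more often called in PYR, 6 of 14 against 2 in PV (median 1.14 toward PYR). The kainate subunit Grik1 was the exception, at 0.742 to 194 (median 28.6) normalized counts in PYR and 636 to 1689.5 (median 1117) in PV libraries, with its auxiliary protein Neto2 higher in PV by 3.12 ± 0.37. On the PYR side were the kainate subunits Grik3 and Grik4 and 4 inhibitory metabotropic receptors. Of the latter, Grm7 ran from 455 to 1156 (median 802) in PYR and 0 to 434 (median 146) in PV libraries and Grm3 from 699 to 1983 (median 967) and 52.2 to 669 (median 391), without overlap. Grm2 and Grm8, at 3.09 and 3.04 on the log2 scale, overlapped and were not called by edgeR, nor was Grik4 (lost also without mouse 10), so that edgeR called 3 of the 6. Among GABA-A receptors, the alpha subunits Gabra2 and Gabra5 were higher in PYR by 2.94 ± 0.55 and 2.49 ± 0.63. The delta subunit Gabrd, part of extrasynaptic receptors, was higher in PV by 2.88 ± 0.53. Over the 17 GABA receptor genes, 3 were called in PYR and 4 in PV, of which edgeR made 1 and 3, leaving out Gabra2, Gabra5 and the GABA-B partner Kctd8.

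Signalling downstream of calcium was shifted toward PYR. Of 19 kinases, inhibitors and calcineurin subunits, 6 were called higher in PYR, 6 more passed below 2-fold, and 1 was called in PV (median 0.85 toward PYR). Camk4, a nuclear calmodulin kinase, ran from 1004 to 2421 (median 1663) normalized counts in PYR and 119.9 to 873 (median 382) in PV libraries, with no overlap. The CaMKII alpha gene Camk2a, abundant in both, ran from 8539 to 12773 (median 10006) in PYR and 3659 to 7396 (median 5872) in PV libraries, a log2 difference of 0.85 ± 0.09 toward PYR (adjusted p = 1.15e-18, limma). The CaMKII inhibitors were divided, with Camk2n1 higher in PYR by 1.04 and Camk2n2 higher in PV by 1.79; the first of these calls was lost without mouse 1 or 6. Nrgn, which encodes the calmodulin-binding neurogranin of spines, was higher in PYR by 2.05 ± 0.18 and did not overlap. It was 1 of 4 calcium-binding genes of 16 called in PYR, with Hpca, Hpcal4 and Necab1, and Calb1 was the 1 called in PV (1.88 ± 0.53), which edgeR did not call. The calcineurin subunit Ppp3r1 was not called without mouse 3, nor Necab1 without mouse 2 or 6 or in edgeR.

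Ras and Rap regulators were called higher in PYR in 7 of 18 cases and in PV in 1. The Ras activator Rasgrp1, on chr2:117279993-117343001, minus strand, ran from 4249 to 6761 (median 5302) normalized counts in PYR and 988 to 2097 (median 1759) in PV libraries, while another activator, Rasgrf2, ran from 212 to 1391 (median 645) and 1477 to 2465 (median 2035), the reverse order. Values of both were separate. The Ras inhibitor Rasal1 was higher in PYR by 3.75 ± 0.49 on the log2 scale. Rasl10a, a Ras-like GTPase, had the largest difference of the list, 4.13 ± 0.92. Rasal1 and Rap2b were not called by edgeR, and Arhgap32 and Rap2b lost their calls without mouse 10, Arhgap32 also without mouse 1 and Rap2b without mouse 7.

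Postsynaptic scaffolds differed by small amounts, with a median of 0.53 toward PYR. Of 24 tested, 4 were called higher in PYR, 8 more passed below 2-fold and 1 was called in PV. The shares of all tested genes called were 4.62% in PYR and 3.65% in PV. Baiap2, an actin adaptor of spines, ran from 1017 to 2829 (median 1646) normalized counts in PYR and 158 to 470.5 (median 280.1) in PV libraries, with no overlap. The PSD-95 gene Dlg4 was higher in PYR by 0.47 ± 0.13 and its relatives Dlg1 and Dlg3 by 0.97 and 0.83 on the log2 scale. The calls of Shank2, Ppp1r9a, Homer2 and, on the PV side, Iqsec1 were lost when 1 mouse was left out: mouse 3, 4, 5, 7 or 10 for Shank2, mouse 3 or 9 for Ppp1r9a, mouse 10 for Homer2 and mouse 3 for Iqsec1. The call of Shank2 was also lost with a pseudocount of 16, and edgeR did not call Homer2 or Iqsec1.

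Among 32 synaptic adhesion genes, 8 were called higher in PYR and 4 in PV. The pentraxins, secreted proteins that gather AMPA receptors, were all on the PYR side: Nptx1 ran from 1517 to 3963 (median 2373) normalized counts in PYR and 144 to 843 (median 569) in PV libraries, Nptx2 from 81.1 to 511 (median 331) and 0 to 63.4 (median 28.1), and their receptor Nptxr is described above. None of the 3 overlapped. Cbln1, a secreted bridge between neurexins and delta receptors, was higher in PYR by 3.69 ± 0.92 on the log2 scale. Contactin-associated proteins were on the PV side, with Cntnap2 at 336 to 956 (median 709) in PYR and 1331 to 3366 (median 2266) in PV libraries, and Cntnap4 higher in PV by 2.34 ± 0.28. Nlgn1, a neuroligin, was higher in PYR by 1.33, and Elfn2 was not called without mouse 3.

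The perineuronal net and the axon carried further PV genes. Of 12 net genes, 4 were called higher in PV and 1 in PYR (median 0.80 toward PV). The proteoglycan Bcan ran from 84.6 to 591 (median 232) normalized counts in PYR and 817 to 2156 (median 1281) in PV libraries and did not overlap. Aggrecan, Acan, ran from 0 to 98.0 (median 0) in PYR and 69.5 to 939 (median 169) in PV libraries, a log2 difference of 4.31 ± 0.90 toward PV (adjusted p = 7.61e-05, limma). The link proteins Hapln1 and Hapln4 were higher in PV by 3.42 and 1.90, whereas neurocan, Ncan, was higher in PYR, at 1168 to 2681 (median 1866) against 201 to 1084 (median 864) in PV libraries. Of 14 ankyrins, spectrins and adhesion proteins of the axon, 4 were called in PV and none in PYR. Ank1 ran from 114 to 348 (median 245) in PYR and 2825 to 6896 (median 3280.4) in PV libraries, and its spectrin partner Sptb was higher in PV by 1.70 ± 0.16. Cntnap1 and Epb41l3, proteins of the axon beside the node, were each higher in PV by 1.38. The neurofilament heavy chain Nefh ran from 26.0 to 338 (median 204) in PYR and 523 to 2401 (median 1262) in PV libraries, and it and Map4 were the 2 called of 17 cytoskeletal genes.

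Neuropeptides and their receptors were divided, with 5 of 24 called in each direction. Cck, which pyramidal cells also transcribe, ran from 917 to 2137 (median 1365) normalized counts in PYR and 45.9 to 649 (median 455) in PV libraries, with no overlap. The receptor for corticotropin-releasing hormone, Crhr1, was at 65.1 to 284 (median 163) in PYR and 0 to 21.5 (median 0) in PV libraries, and its secreted binding protein Crhbp at 0 to 3.28 (median 0) and 0 to 691 (median 239.5). Tac1, the substance P precursor, was higher in PV by 5.76 ± 0.90 on the log2 scale (adjusted p = 2.68e-08, limma). Crhbp and Cort, another of the 5 on the PV side, are also markers of somatostatin neurons, and beside them the mean of Sst was 87.2 in PYR and 229 in PV libraries and that of Npy 23.4 and 115. The summed level of all 10 somatostatin markers did not pass (1198 to 2910 in PYR, 1115 to 3308 in PV libraries), with Nos1, at means of 999.9 and 407, running the other way; the part of somatostatin cells in these calls was not tested. The call of Cort was lost without mouse 5 or 8. On the PYR side the somatostatin receptor Sstr3 lost its call without any of 7 mice and in edgeR, and Npy1r, like the PV-side opioid receptor Oprd1, was not called by edgeR.

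Receptors for acetylcholine and monoamines gave 2 calls in each direction among 25. Muscarinic M1, Chrm1, ran from 1611 to 2333 (median 1774) normalized counts in PYR and 39.9 to 983 (median 749) in PV libraries, with no overlap, and Chrm3 was higher in PYR by 1.67 ± 0.52 (lost without mouse 6). The inhibitory muscarinic M2 receptor, Chrm2, was higher in PV by 2.95 ± 0.73, and the adrenergic receptor Adra1a by 2.47 ± 0.50. Among 21 growth factors and receptor kinases, 4 were called in PYR and 5 in PV. The neuregulin receptor Erbb4 ran from 25.1 to 494 (median 272) in PYR and 7119 to 12938 (median 9261) in PV libraries, with no overlap, and the ligand Nrg1 was higher in PYR by 2.39 ± 0.73 on the log2 scale, a call lost without mouse 2. Bdnf was at 24.3 to 342 (median 152) in PYR and 0 to 58.2 (median 0) in PV libraries, a difference of 4.12 ± 0.91 toward PYR. Epha4 and Ephb6 were also called in PYR, and Ntrk3, Fgf9, Fgfr1 and Fgfr2 in PV. Of these calls edgeR made 2 in PYR and 3 in PV, without Nrg1, Epha4, Fgfr1 and Fgfr2; those of Fgfr1 and Fgfr2 were also lost without any of 5 and 4 mice.

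Of 17 genes induced by neuronal activity, 7 were called higher in PYR (4 by edgeR), none in PV, and 10 did not pass; 16 of 17 had the sign toward PYR (median 1.78). Nr4a3, an orphan nuclear receptor, ran from 295 to 799 (median 434) normalized counts in PYR and 20.4 to 146 (median 60.9) in PV libraries, with no overlap. Nr4a1 was higher in PYR by 2.68 ± 0.63, the zinc finger factor Egr1 by 2.22 ± 0.42, and Npas4, which responds to calcium, by 2.00 ± 0.61 on the log2 scale, all with overlap. The remaining calls were Egr3, Junb and Nptx2. Of the 7, edgeR called 4, without Egr1, Egr3 and Junb, and the calls of Junb (mouse 5 or 9) and Npas4 (mouse 2 or 5) were lost when 1 of these mice was left out.

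Gene type and length, which the comparison did not use, are given as a description. Of the genes called higher in PYR, 707 were protein coding, 35 long noncoding, 13 pseudogenes and 8 small RNA genes, against 552, 49, 2 and 0 of those called higher in PV. Among all 16564 tested genes, 13245 were protein coding. The other types were not counted over all tested genes. The genes were long: the median distance from first to last annotated base was 41.0 kb for the PYR genes, 48.7 kb for the PV genes and 19.8 kb for all genes tested. The called genes were also more abundant. The median level in the higher type was 437 normalized counts (PYR) and 513 (PV), against 129 for all tested genes. The part of level and of gene type in the difference of length was not tested. These values describe the called genes. Their median fold was 5.27 for PYR and 5.83 for PV, and 168 and 202 genes differed at least 8-fold. Higher values in all 10 mice were seen for 294 of the PYR and 292 of the PV genes.

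The same contrast in stressed mice, whose libraries are separate animals, gave 979 genes higher in PYR (5.9%) and 681 higher in PV (4.1%) among 16594 tested in 9 mice. Of the 765 PYR genes of the controls, 738 had the same sign and 501 were also called, which is 65.5% of the control list and 51.2% of the stressed list. Of the PV genes, all but 3 were tested, 587 had the same sign and 440 were also called, 72.7% and 64.6% of the lists. Only Hykk among all the control calls was called in the opposite direction; it is named because it was the 1 exception. Nptxr differed by 2.26 in control and 2.24 in stressed mice, Scn2a by 1.52 and 1.47, C1ql3 by 5.44 and 4.23, and Camk4 by 2.12 and 1.85, all toward PYR on the log2 scale. Toward PV, Gad1 differed by 5.86 in control and 6.76 in stressed mice, Syt2 by 6.29 and 7.37, Kcnc1 by 3.16 and 2.98, and Ppargc1a by 3.32 and 3.71. The median difference of the called genes was 2.40 (PYR) and 2.54 (PV) in the controls, whose values chose them, and 1.72 and 1.93 in the stressed mice.

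When the PYR-minus-PV difference was tested directly between stressed and control mice, 0 of 16502 genes passed in limma (smallest adjusted p 0.0906), and 779 had an unadjusted p under 0.05. A p that misses the threshold does not show that the types differed alike in both arms.

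**Figure D5:**
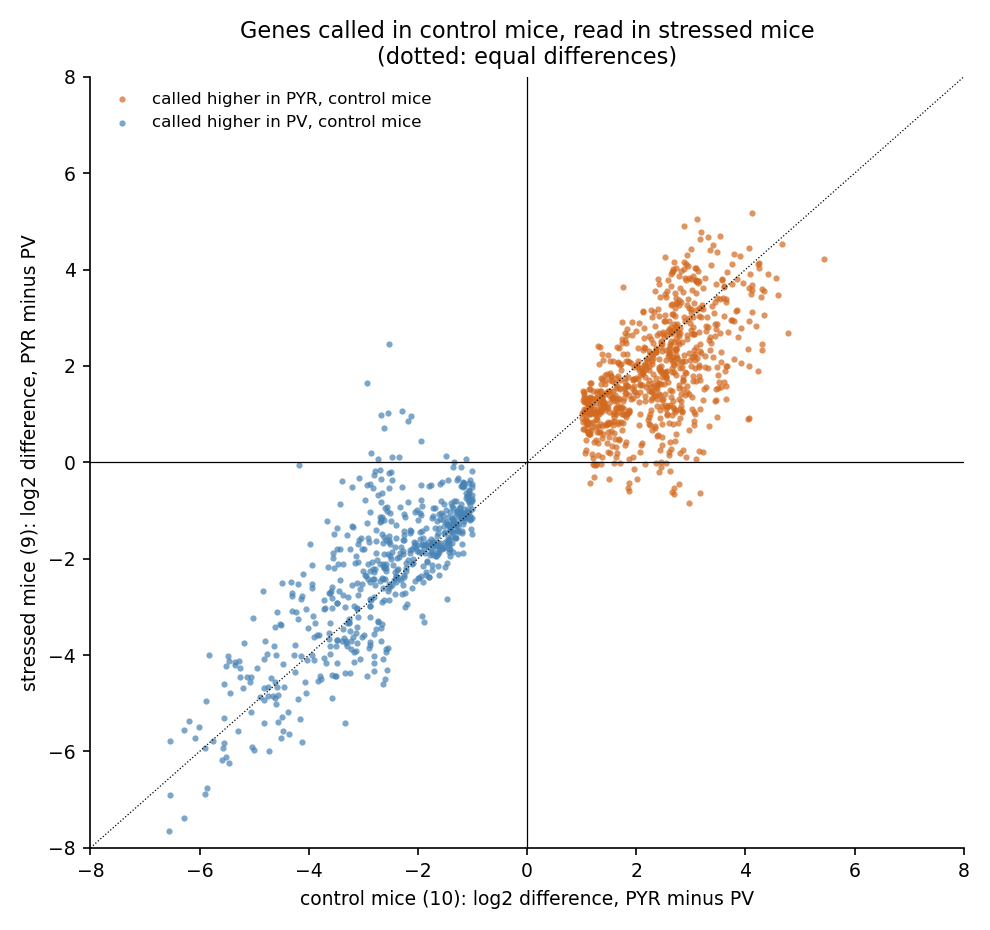
Log2 difference (PYR minus PV) of each gene called in the control mice, in the 10 control mice (horizontal) and in the 9 stressed mice (vertical), with a dotted line at equal differences. Most points lie in the quadrants of equal sign: 738 of 765 PYR genes and 587 of the PV genes.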

How the data were processed

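Libraries of 130 cells were made with a strand-keeping SMARTer total-RNA kit for picogram input and, per the submitters' processing notes, handled with HISAT2, SAMtools 1.3 and DESeq2 on GRCm38 (mm10); how reads were counted, on which annotation and strand, is not given in the sources used here, so overlapping, antisense and near-identical genes cannot be told apart. The deposited values are a signal per gene: the authors scaled each library's read counts by its size factor. Dividing by the value of 1 read gave whole reads, within 0.001, for at least 99.9974% of values in each of the 20 libraries; these served for read totals, edgeR 4.0.16 and DESeq2 1.42.0. Gene types, spans and exon lengths came from GENCODE M21, which matched 38636 of 38879 identifiers.

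PYR and PV were compared in the 10 control mice with limma-trend (limma 3.58.1, R 4.3.3), robust, two-sided, on log2 of the normalized count plus 4, for every gene whose mean reached 10, with the mouse as a fixed block and Benjamini-Hochberg adjustment over all genes; called means adjusted p under 0.05 and at least 2-fold. Depth ran from 5241174 to 12727616 reads. For a gene with 0 reads, counting error alone allows up to 3 expected reads. Equal numbers were read as the same animal, since each type has 10 control numbers for 10 control mice. The deviations of libraries with equal numbers correlated at a median of 0.0061 (from −0.0101 to 0.0267). No 2 libraries were identical.

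The method was tested on simulated data: of 15296 genes for the control comparison, with 50 changed per size, it recovered 10% at 2-fold, 26% at 4-fold, 38% at 8-fold and 34% at 16-fold, with 3 false calls. The changed genes were drawn at random over all levels. A call needs an estimate of at least 2-fold, which a true 2-fold change often misses. No mouse effect and no library set apart from the others was simulated, so these figures describe the simulation and not the error rate of the real comparison. Genes named are the 12 per direction with the largest statistic and the 8 with the largest difference among those above 0 in all 10 libraries of the higher type (probed genes and unnamed models left out), members of the lists, and both genes of 15 related pairs; some of these genes are not reported here. The comparison, members and lists were chosen with earlier results of these data known. Alternatives were 2 pseudocounts, 2 filters, 2 treatments of the mouse, 2 scalings, a fit with all 4 types, edgeR, DESeq2 and each mouse left out; list counts without mouse 3 were chosen after seeing the data.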

Additional observations from a re-analysis of the deposited data

Results flagged for a closer look

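Of 146 groups of 10 library values examined, 16 had an extreme value far from the rest by Dixon's criterion. Chance passes this criterion in about 1 of 20 groups only where values are normally distributed. Some groups held low and skewed counts, such as Mybpc1, Cox6a2 and Arhgef6 in PYR libraries, so that rate need not hold here. Whether 16 groups exceed chance was not tested. Among library measures, the oligodendrocyte precursor markers summed to 1129.7 in the PYR library of mouse 4 (next 537) and to 600.02 in the PV library of mouse 7 (next 325). Reads on miRNA models were 16.9% in the PV library of mouse 8 (next 23.0%), and pyramidal markers summed to 7458 in the PV library of mouse 9 (next 10625).

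The PV library of mouse 3, the shallowest and apart from the others over the whole profile, was the extreme one for 4 genes: Cobl at 1280.3 normalized counts (next 685), Gria4 at 5392 (next 3286), Ppargc1a at 3574 (next 2553) and Sv2b at 67.8 (next 1034). In other PV libraries Tpd52l1 was at 99.95 in mouse 8 (next 17.4) and Pter at 478 in mouse 7 (next 129). In PYR libraries Nell2 reached 7059.8 (next 5515) and Vamp1 477 (next 193) in mouse 8. Mybpc1 was at 40.1 in mouse 5 (next 19.5), Cox6a2 at 49.9 in mouse 4 (next 10.4) and Arhgef6 at 153.8 in mouse 10 (next 24.6). Cacna1a was at 3175 in mouse 3 (next 2390.0). Cox6a2 is the 1 of these genes whose call was lost when a mouse was left out, without mouse 2, 3 or 5.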

How the results depend on the processing

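Of the 1370 called genes 765 were higher in PYR; the counts in PYR and PV became 1447 and 996 with DESeq2 on recovered reads, and 471 and 418 with edgeR; the cause was not tested. DESeq2 held 716 and 580 of the main calls and edgeR 446 and 417. With no replicate block, which treats the pairing by mouse as absent, they were 776 and 613, and no named gene lost its call. Leaving out 1 mouse gave 673 to 748 in PYR and 540 to 653 in PV. Other settings gave 556 to 863 in PYR and 487 to 636 in PV, and the share of calls in PYR ran from 51.7% to 59.2% over all settings. Of 215 called genes that the naming rule covers, none reversed under any setting; edgeR called 165, DESeq2 213, and each fit without 1 mouse 197 to 210. In the stressed mice, pseudocount 1 gave 958 and 647 and the unpaired fit 982 and 682. The test between arms passed 0 genes also with pseudocount 1 (762 at an unadjusted p under 0.05). How depth limits the calls was not tested separately.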

Other observations

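Cytosolic ribosomal protein genes, which build the translation machinery, leaned toward PYR. Of 79 tested, 63 had the sign toward PYR (median log2 difference 0.28), against 8842 of all 16564 tested genes (median 0.08). Only 2 of the 79 passed, both called higher in PYR, where 4.62% of all tested genes were called. Rps24 ran from 262 to 1084 (median 491) normalized counts in PYR and 0 to 678 (median 235) in PV libraries, and Rpl34 from 147 to 445 (median 338) and 0 to 407 (median 89.2), both with overlap. Neither was called by edgeR, nor without mouse 3, whose PV library was the shallowest. The order is the reverse of that of the mitochondrial proteins, for which all 13 genes had the sign toward PV. Without mouse 3 the median log2 difference of all tested genes was 0.0061, and the lean of the ribosomal list was not tested there.

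The ERR element was also in the promoter windows of 2 of 63 oxidative phosphorylation genes (3.17%), Atp5g3 and Sdhd, neither of which passed between the types.

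Long noncoding RNA genes made up 35 of the 765 PYR calls and 49 of the PV calls, and pseudogenes 13 and 2. Their shares of all tested genes were not counted, so these numbers describe the called genes only.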
